A study of Mus musculus with 4 samples.

Results

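The transforming growth factor beta (TGF-beta) genes described here are 3 ligands (Tgfb1, Tgfb2 and Tgfb3), 3 receptors (Tgfbr1, Tgfbr2 and Tgfbr3) and 4 latent TGF-beta binding proteins (Ltbp1, Ltbp2, Ltbp3 and Ltbp4). These 10 genes were taken by their symbols from 20325 gene symbols in the deposited expression matrix, and all 10 passed the filter on low counts that left 13162 genes for testing. The RNA came from C3H10T1/2 cells, a multipotent mesenchymal line from C3H mouse embryos. One group stably expressed histone H3.3 with lysine 36 changed to methionine (K36M, 2 libraries), and the other stably expressed wild-type H3.3 (WT, 2 libraries). Both forms carried a FLAG-HA tag, and the labels give both groups the same serum-containing DMEM and the same span of passages. Whether a group was 1 clone or a pool of cells, and whether replicates came from separate cultures, is not stated in the labels. The p-values therefore speak only of variation among the 4 libraries, part or all of which could be technical.

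TGF-beta is made as a precursor whose propeptide stays wrapped around the mature dimer and keeps it latent. A latent TGF-beta binding protein joins this complex by disulphide bonds and ties it to fibrillin and fibronectin fibres in the matrix, from which integrins, thrombospondin-1 or proteases can release it. The free ligand is bound by the type II receptor, which recruits and phosphorylates the type I receptor, and SMAD2 and SMAD3 then carry the signal to the nucleus. In mesenchymal cells the pathway is known for matrix production, for the contractile phenotype and for early cartilage formation. K36M H3 inhibits the enzymes that methylate lysine 36 of histone H3, and the comparison asks which genes differ between mesenchymal cells with the mutant and with the wild-type histone.

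Libraries held 34022137 to 56041798 expected counts (estimated reads per gene) in K36M and 23343297 to 25322433 in WT. Levels are given in CPM, expected counts relative to a library size scaled by trimmed means (TMM), as mean ± SD over n = 2 libraries. Each of the 14 markers of mesenchymal cells had counts in every library, but Nt5e, named for its low level after its values were seen, had 48 and 28 counts in K36M libraries, against 2 and 5 in WT libraries. Of the 14, 6 were called higher and 6 lower (42.9% each, beside 38.5% of all tested genes higher and 37.1% lower). With libraries scaled by total counts or by upper quartile, 8 were higher and 4 lower. The counts of the other marker lists below stand beside the same shares of all tested genes. The surface marker gene Thy1 was 11.2-fold higher (35.5 ± 0.345 CPM in K36M and 3.17 ± 0.485 CPM in WT) and the transcription factor genes Twist2 and Twist1 2.51-fold and 1.84-fold higher, while the collagen genes Col3a1 and Col1a2 were 2.88-fold and 1.72-fold lower and the vimentin gene Vim 1.46-fold lower. The 12 blood and platelet markers summed to 50.9 to 52.3 CPM in K36M and 22.5 to 22.9 CPM in WT, with 6 of 8 tested markers higher and 1 lower. Of the K36M sum the largest single item was Hba-a1, at 26.7 and 25.3 CPM, against 0.0807 and 0.261 CPM in WT libraries. Gp1bb, the lower one, had 4.61 and 4.40 CPM in K36M libraries, against 11.8 and 11.1 CPM in WT libraries. Hbb-b1 and Gp9 had no counts in any library. The 9 epithelial markers summed to 25.1 to 26.5 CPM in K36M and 11.3 to 12.5 CPM in WT (3 of 4 tested higher, 1 lower, Epcam and Cldn4 without counts). Of these Cdh1 had 22.3 and 24.1 CPM in K36M libraries, against 5.89 and 5.56 CPM in WT libraries. Krt14, the lower one, had 0.775 and 0.719 CPM in K36M libraries, against 5.97 and 5.26 CPM in WT libraries. Endothelial markers summed to 16.7 to 18.7 CPM in K36M and 38.4 to 39.8 CPM in WT (1 of 3 tested higher, 1 lower). Tek, the lower one, had 4.88 and 4.58 CPM in K36M libraries and 28.9 and 27.3 CPM in WT libraries. Cdh5, the higher one, had 2.25 and 1.87 CPM in K36M libraries and 0.847 and 0.434 CPM in WT libraries. Vwf was not called, and Pecam1, Kdr, Tie1, Emcn and Esam did not pass the filter on low counts. Neural and glial markers summed to 43.2 to 44.2 CPM in K36M and 111 to 113 CPM in WT (1 of 5 tested higher, 4 lower). Of these S100b had 15.0 and 16.5 CPM in K36M libraries and 91.1 and 94.7 CPM in WT libraries. Tubb3, the higher one, had 25.7 and 24.8 CPM in K36M libraries and 13.4 and 12.8 CPM in WT libraries. Olig2 had no counts in any library. A floor of 3 counts was 0.0535 and 0.0882 CPM in the K36M libraries and 0.118 and 0.129 CPM in the WT libraries, for counting error only. Whether any of these markers came from other cells in the cultures was not tested, nor was a part of such cells in the values of the TGF-beta genes.

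Tgfb2 fell 11.5-fold in K36M cells, while Tgfb1, the type II receptor gene Tgfbr2, the betaglycan gene Tgfbr3 and the binding protein genes Ltbp1, Ltbp2 and Ltbp3 rose between 1.30-fold and 3.39-fold. Tgfb3 rose 1.2-fold, Tgfbr1 fell 1.16-fold, and Ltbp4 did not pass the test. At an adjusted p under 0.05 (edgeR quasi-likelihood test, Benjamini-Hochberg over all genes tested), 7 of the 10 genes were higher and 2 lower in K36M, beside 38.5% of all tested genes higher, 37.1% lower and 75.6% called in either direction. In 9 of the 10 the K36M and WT libraries did not overlap, beside 87.1% of all tested genes. A called difference of at least 2-fold was found in 3 of the 10, Tgfb2, Tgfbr3 and Ltbp1, beside 21.3% of all tested genes. The median log2 fold change was 0.55 over the 10 genes and 0.00 over all genes tested, and the median absolute log2 fold change was 0.79 over the 10 genes and 0.38 over all genes tested. In bulk RNA of a culture, fewer cells that express a gene and less of its RNA per cell cannot be told apart.

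**Figure D1:**
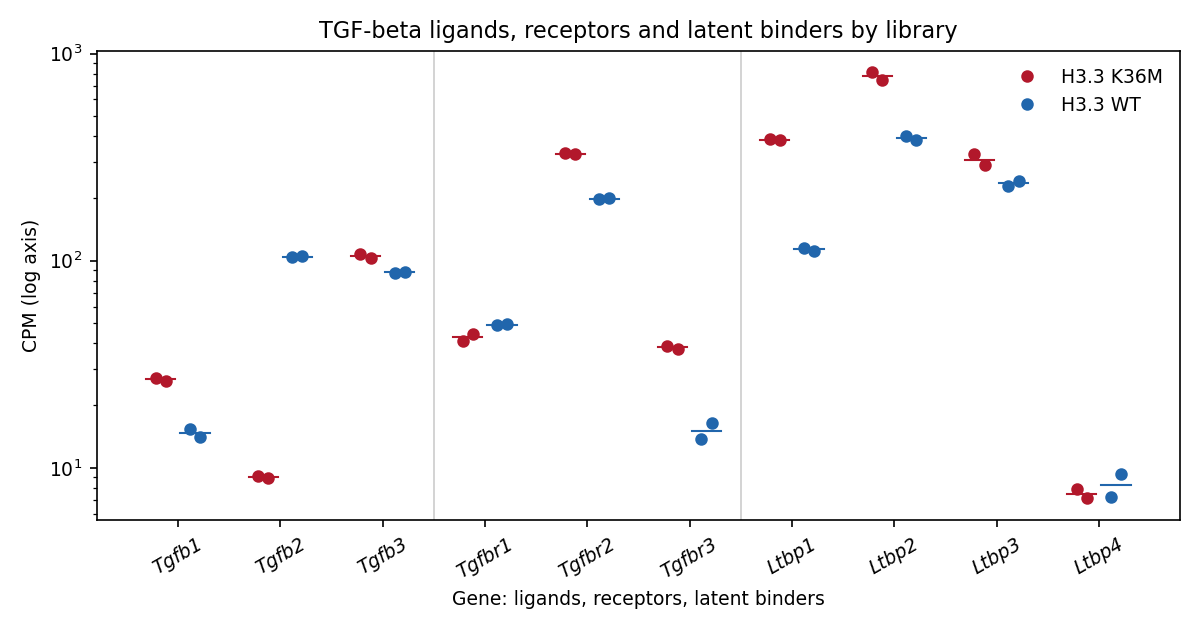
Level of each gene in each library, in CPM on a log axis, with K36M in red left of WT in blue; points are libraries and short lines are means of n = 2. Tgfb2 lies at 9.02 CPM in K36M and 104 CPM in WT, and Ltbp4 is the gene whose groups overlap.

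The bases before the start site are shown for Tgfb2, the gene with the largest fall, for Tgfb1, the ligand gene that rose most, and for Ltbp1, the gene with the largest rise. Each window is the 250 bases before the RefSeq start (assembly GRCm38.p6, a later build than the mm9 of the deposited counts), 5′ to 3′ on the gene's strand. Capitals mark matches, on either strand, to the TATA box (letters TATAAA), the E-box (CACGTG), the cAMP response element or CRE (TGACGTCA), the CRE core that every full CRE contains (TGACG), the AP-1 site (TGANTCA) and the GC box (GGGCGG).
Tgfb2, chr1:186705990-186706239, minus strand: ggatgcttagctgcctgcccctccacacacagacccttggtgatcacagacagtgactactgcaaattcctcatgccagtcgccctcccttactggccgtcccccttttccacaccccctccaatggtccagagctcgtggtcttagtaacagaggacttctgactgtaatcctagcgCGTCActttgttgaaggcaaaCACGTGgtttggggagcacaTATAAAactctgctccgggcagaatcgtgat
Tgfb1, chr7:25686752-25687001, plus strand: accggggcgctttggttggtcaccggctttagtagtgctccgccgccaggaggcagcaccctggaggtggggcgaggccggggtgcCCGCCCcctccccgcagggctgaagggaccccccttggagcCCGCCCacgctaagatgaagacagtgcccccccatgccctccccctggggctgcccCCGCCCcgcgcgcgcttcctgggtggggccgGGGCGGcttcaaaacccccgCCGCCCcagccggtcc
Ltbp1, chr17:75005279-75005528, plus strand: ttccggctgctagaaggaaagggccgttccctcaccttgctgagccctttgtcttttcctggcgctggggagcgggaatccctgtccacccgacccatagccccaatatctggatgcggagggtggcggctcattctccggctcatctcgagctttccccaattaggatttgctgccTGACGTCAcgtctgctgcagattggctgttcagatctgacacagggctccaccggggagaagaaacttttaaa
The Tgfb2 window held 1 TATA box, whose last base lay 26 bases before the start, 1 E-box ending 46 bases before it, 1 CRE core ending 68 bases before it and no GC box. The Tgfb1 window held 5 GC boxes and none of the other capitalised motifs, and its GC content was 75.2%, against 53.6% for Tgfb2 and 56.8% for Ltbp1. The Ltbp1 window is that of the upstream of 2 annotated starts and held 1 full CRE ending 66 bases before the start, which contains both matches to the core; the window of the downstream start held none of these motifs. Of 32851 windows of this length in the table, 12.4% held the TATA letters, 6.02% the E-box, 1.55% the full CRE, 17.8% the CRE core, 6.75% the AP-1 site and 32.7% the GC box. The SMAD-binding letters CAGAC, not capitalised, occurred 2 times in the Tgfb2 window, once in that of Ltbp1 and not in that of Tgfb1, and in 42.2% of all windows. A match is a description of letters, and its use in these cells was not measured. RefSeq windows were found for 8 of the 10 genes, and of the ligand genes for Tgfb1 and Tgfb2.

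Tgfb2 encodes the isoform known from developing mesenchyme, heart and skeleton. It had 9.12 and 8.92 CPM (517.73 and 310 expected counts) in the K36M libraries, against 104 and 105 CPM (2570.17 and 2415.4 counts) in the WT libraries. Both K36M libraries were low and close to each other, and the groups were far apart. The log2 fold change was -3.53 (SE 0.0539, adjusted p = 3.09e-20), an 11.5-fold fall with a 95% interval of 10.7 to 12.5. By size of fall it ranked 198 among the 13162 genes tested, and 5.49% of tested genes had a larger change in either direction. It is the 1 gene of the 10 in the authors' deposited table of 594 genes with a ratio over 10 or under 0.1, where the authors' deposited table gives a K36M over WT ratio of 0.0817.

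Tgfb1 encodes the most widely expressed isoform and the main one of fibrosis. It had 27.2 and 26.2 CPM in the K36M libraries, against 15.3 and 14.0 CPM in the WT libraries. All K36M values lay above both WT values, and Tgfb1 rose 1.82-fold (95% interval 1.64 to 2.02, log2 fold change 0.86, adjusted p = 2.89e-09). Tgfb3, the isoform best known from palate fusion, had 107 and 103 CPM in the K36M libraries, against 87.3 and 88.5 CPM in the WT libraries. The groups did not overlap and the rise was 1.2-fold (95% interval 1.12 to 1.28, adjusted p = 3.64e-05), smaller than the change of 62.8% of all tested genes.

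Ratios between genes of the same library do not depend on how libraries are scaled. The count ratio of Tgfb2 to Tgfb1 was 0.336 and 0.340 in the K36M libraries, against 6.76 and 7.49 in the WT libraries. It was thus 21.1-fold lower in K36M, a log2 difference of -4.40 with a pooled SD of 0.0742. The ratio of Tgfb2 to Tgfb3 was 0.0849 and 0.0867 in the K36M libraries, against 1.19 in each of the WT libraries, 13.8-fold lower. Tgfb3 to Tgfb1 moved least of the ligand pairs, with 3.95 and 3.93 in K36M against 5.70 and 6.31 in WT. For each of the 8 ratios computed here the 2 groups did not overlap and the exact two-sided permutation test gave p = 0.333, the smallest that 2 libraries against 2 allow, so no adjustment could bring it past a threshold.

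**Figure D2:**
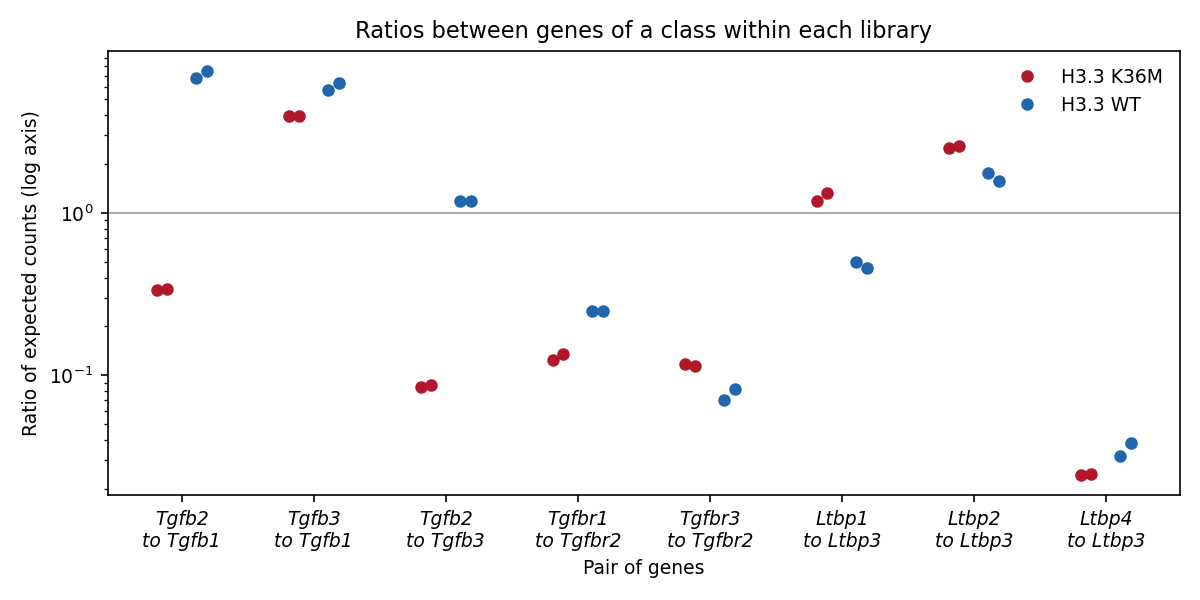
Ratio of expected counts of 2 genes of a class in each library, on a log axis, with K36M in red left of WT in blue; each point is a library and the grey line is a ratio of 1. The Tgfb2 to Tgfb1 ratio lies under 1 in both K36M libraries and over 6 in both WT libraries.

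Levels of different genes can be compared only per transcript length, which the deposited matrix lacks. The lengths of complete protein-coding transcripts in GENCODE M21 (GRCm38), from the shortest to the longest, gave a span of CPM per kilobase for each gene. In K36M cells Tgfb3 stood at 31.1, Tgfb1 at 12.3 and Tgfb2 at 1.76 to 2.59 CPM per kilobase, with no overlap of spans. In WT cells Tgfb2 (20.4 to 29.9) and Tgfb3 (26.0) could not be ordered, and both stood above Tgfb1 (6.75). The ligand of the lowest level per length was thus Tgfb2 in K36M cells and Tgfb1 in WT cells.

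The receptor genes went different ways. Tgfbr2 encodes the type II receptor, the kinase that binds ligand first. It had 329.5 and 326 CPM in the K36M libraries, against 197 and 199.6 CPM in the WT libraries. The groups did not overlap, and the rise was 1.65-fold (95% interval 1.57 to 1.74, log2 fold change 0.72, SE 0.0365, adjusted p = 2.11e-12). Tgfbr1 encodes the type I receptor ALK5, which phosphorylates SMAD2 and SMAD3. It had 41.0 and 44.3 CPM in the K36M libraries, against 48.9 and 49.4 CPM in the WT libraries. Both K36M values were the lower ones, and the fall was 1.16-fold (95% interval 1.07 to 1.25, adjusted p = 0.00121).

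Tgfbr3 encodes betaglycan, a co-receptor without kinase activity that presents ligand to the type II receptor and that TGF-beta2 needs most, since this isoform binds the type II receptor weakly by itself. It had 38.8 and 37.4 CPM in the K36M libraries, against 13.8 and 16.4 CPM in the WT libraries. The WT libraries differed more from each other than the K36M libraries did, and the groups were well separated. Tgfbr3 rose 2.53-fold (95% interval 2.28 to 2.81, log2 fold change 1.34, SE 0.0705, adjusted p = 4e-12), in the same libraries in which Tgfb2 fell. Within libraries the count ratio of Tgfbr1 to Tgfbr2 was 0.124 and 0.136 in K36M, against 0.248 and 0.247 in WT, 1.90-fold lower. The ratio of Tgfbr3 to Tgfbr2 was 0.118 and 0.115 in K36M, against 0.0700 and 0.0821 in WT, 1.53-fold higher. Per kilobase Tgfbr2 stood highest in K36M cells (40.5 to 94.3, against 7.41 to 24.9 for Tgfbr1 and 6.26 for Tgfbr3). In WT cells the spans of Tgfbr2 (24.5 to 57.1) and Tgfbr1 (8.54 to 28.7) overlapped and Tgfbr3 (2.48) was lowest.

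The binding protein genes that are most expressed rose. Ltbp1 encodes the binding protein that anchors latent TGF-beta to fibronectin and fibrillin. It had 385 and 382 CPM in the K36M libraries, against 115 and 112 CPM in the WT libraries. The 2 libraries of each group were nearly equal, and the rise was 3.39-fold (95% interval 3.20 to 3.58, log2 fold change 1.76, SE 0.0386, adjusted p = 6.63e-18). Among all tested genes 12.5% had a larger change in either direction. The matrix gives 1 value per gene, so the long and the short Ltbp1 transcripts, which begin at different starts, were not told apart.

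Ltbp2 encodes a family member that binds fibrillin but does not form a complex with latent TGF-beta. It had 814 and 747 CPM in the K36M libraries, against 401 and 381 CPM in the WT libraries. It rose 2.00-fold, a little short of the 2-fold mark before rounding (95% interval 1.88 to 2.13, adjusted p = 1.54e-13). Ltbp3 encodes a binding protein of latent TGF-beta that bone and tooth growth need. It had 326 and 289.9 CPM in the K36M libraries, against 229 and 243 CPM in the WT libraries, a 1.30-fold rise (95% interval 1.22 to 1.40, adjusted p = 9.47e-07). For both genes the K36M libraries differed from each other more than the WT libraries did, with SDs of 46.8 and 25.2 CPM in K36M against 14.2 and 10.1 CPM in WT, and the groups still did not overlap.

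Ltbp4, known for elastic fibre assembly in lung and vessels, was the least expressed of the 4. It had 7.91 and 7.11 CPM (448.98 and 247 counts) in the K36M libraries, against 7.26 and 9.30 CPM (180 and 213.52 counts) in the WT libraries. One WT library lay inside the K36M range, and the log2 fold change was -0.13 (95% interval -0.37 to 0.12, adjusted p = 0.331). Leaving out WT replicate 1 gave -0.30 (adjusted p = 0.035), and leaving out WT replicate 2 gave 0.05 (adjusted p = 0.761). The 95% Poisson intervals of the WT libraries, 6.24 to 8.40 and 8.09 to 10.6 CPM, overlap, and cover counting error only. Relative to Ltbp3 in the same library, Ltbp1 had a count ratio of 1.18 and 1.32 in K36M against 0.501 and 0.459 in WT, 2.60-fold higher. Ltbp2 relative to Ltbp3 had 2.50 and 2.58 in K36M against 1.75 and 1.56 in WT, and Ltbp4 relative to Ltbp3 0.0243 and 0.0245 in K36M against 0.0317 and 0.0381 in WT. Per kilobase Ltbp2 was the highest in both groups (115 to 121 in K36M and 57.7 to 60.4 in WT) and Ltbp4 the lowest (1.39 to 2.18 in K36M and 1.54 to 2.40 in WT). Ltbp1 (57.5 to 78.8) and Ltbp3 (59.3) could not be ordered in K36M cells, and in WT cells Ltbp1 (17.0 to 23.3) stood under Ltbp3 (45.5).

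**Figure D3:**
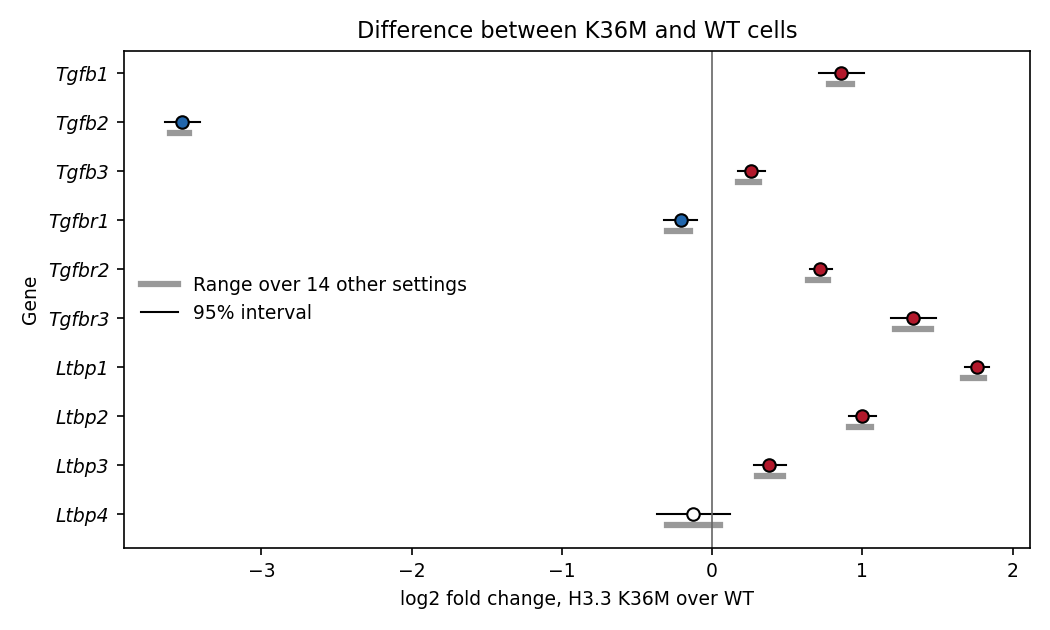
Log2 fold change of K36M over WT for each gene from the edgeR fit, with its 95% interval (black) and the range over 14 other settings of the processing (grey); red points were called higher, blue lower and the open point was not called. Tgfb2 at -3.53 stands apart from the others, which lie between -0.21 and 1.76.

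Genes whose profile over the 4 libraries lay closest to that of Tgfb2, by the root mean square difference of centred log2(CPM + 0.5) values, were Thbs1 (0.0184), Chst7 (0.0211) and Pth1r (0.0282). Thbs1, the thrombospondin-1 gene, had means of 90.4 CPM in K36M and 1012 CPM in WT. Closest to Ltbp1 were Specc1 (0.00666), Slc4a4 (0.0119) and Ptpru (0.0233). Their log2 fold changes in the fit were 1.76, 1.92 and 2.38, against 1.76 for Ltbp1. The 0.5 CPM added narrows the differences of genes at low levels, such as Ptpru at 3.49 CPM in K36M and 0.669 CPM in WT. With 2 groups of 2 libraries such likeness mostly measures a like group difference of log2(CPM + 0.5). By this measure 17 genes lay within 0.1 of Tgfb2 and 139 within 0.1 of Ltbp1.

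Among genes that process, hold or release latent TGF-beta, both directions occurred. Of 20 listed genes 18 were tested, 5 were higher (27.8%, beside 38.5% of all tested genes), 8 lower (44.4%, beside 37.1%) and 5 not called, with a median log2 fold change of -0.04. Under total counts 7 were higher and 8 lower, with a median of 0.01. Thbs1, whose protein activates the latent complex, was 11.2-fold lower (adjusted p = 4.5e-22). Itgb3 and Itgb8, partners of the alpha-v integrin chain, were 2.81-fold and 3.08-fold lower. Itgb5, a further partner of that chain, rose to 674 and 625 CPM in K36M libraries, against 258 and 264 CPM in WT libraries, 2.49-fold. Lrrc32, whose protein GARP holds latent TGF-beta at the cell surface, was 1.85-fold higher, and Plat, the tissue plasminogen activator gene, 1.75-fold higher. Mmp9 and Tgm2 (1.54-fold) were the remaining higher genes, named because only 5 were higher. Mmp9 had 99 and 53 counts in K36M libraries, against 2 and 0 in WT libraries (log2 fold change 5.19). The propeptide protease gene Furin had a log2 fold change of -0.09 (adjusted p = 0.0806) and the alpha-v gene Itgav 0.04 (adjusted p = 0.34), both named after their values were seen and neither past the test.

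Most matrix partners of the binding proteins fell. Of 12 listed genes 11 were tested, with 3 higher (27.3%, beside 38.5% of all tested genes), 7 lower (63.6%, beside 37.1%) and 1 not called, and a median log2 fold change of -0.36. Eln, the elastin gene, had 2.45 and 3.11 CPM in K36M libraries, against 1012 and 1081 CPM in WT libraries. Fbn2, which encodes the fibrillin of developing tissue, had 23.4 and 23.5 CPM in K36M libraries, against 223 and 225 CPM in WT libraries, 9.55-fold lower. Fn1, the fibronectin gene, fell 3.04-fold, with means of 5953 ± 203 CPM in K36M and 18110.0 ± 522 CPM in WT. The genes that were higher were Fbln2 (1.14-fold), Adamts10 (1.2-fold) and Adamtsl2 (log2 fold change 6.14). Adamtsl2 had 92 and 65 counts in K36M libraries, against 0 and 1 in WT libraries. Its mean over libraries was under 1 CPM, and it is named because only 3 genes of the list were higher.

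Co-receptors and extracellular traps of TGF-beta family ligands mostly fell too. Of 17 listed genes 14 were tested, with 2 higher (14.3%, beside 38.5% of all tested genes), 11 lower (78.6%, beside 37.1%) and 1 not called, and a median log2 fold change of -0.46. Fmod, the gene of fibromodulin, a collagen-bound proteoglycan that binds TGF-beta, fell 87.8-fold to 1.29 ± 0.50 CPM in K36M, against 106 ± 4.46 CPM in WT. Bambi, a decoy receptor gene, fell 7.47-fold, and Fst, the follistatin gene, whose protein traps activins, 6.58-fold. Higher were Htra1 (3.90-fold), a secreted protease gene, and its relative Htra3 (log2 fold change 2.65). Htra3 is named because only 2 genes of the list were higher. It had 68.17 and 42 counts in K36M libraries, against 2 and 7 in WT libraries.

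Genes of SMADs and their regulators changed by less than 2-fold in all 23 of the called cases. Of 26 genes tested 15 were higher (57.7%, beside 38.5% of all tested genes), 8 lower (30.8%, beside 37.1%) and 3 not called, with a median log2 fold change of 0.19. These counts depended on the scaling, with 12 higher and 10 lower (median 0.10) under the authors' factors and 16 higher and 6 lower (median 0.24) under total counts. Smad3, which like Smad2 encodes a receptor-regulated SMAD of this pathway, was 1.82-fold higher. It had 137 and 133 CPM in K36M libraries, against 74.7 and 73.4 CPM in WT libraries. Smad2 had a log2 fold change of 0.09 and did not pass the test (adjusted p = 0.0762; named after its value was seen). The feedback inhibitor genes Skil and Smad7 were 1.74-fold and 1.64-fold higher, and Smad6, Smad9 and Tgif2 were 1.69-fold, 1.44-fold and 1.60-fold lower.

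Genes known to respond to TGF-beta went in both directions. Of 36 listed genes 34 were tested, with 16 higher and 16 lower (47.1% each, beside 38.5% and 37.1% of all tested genes), 2 not called and a median log2 fold change of 0.01; under the authors' factors 13 were higher and 16 lower. Of those called and at least 2-fold apart, 3 were higher and 10 lower, while over all tested genes 12.7% were higher and 8.69% lower by that rule. Tgfbi rose to 56.9 ± 1.57 CPM in K36M, against 11.0 ± 1.29 CPM in WT. Spp1, the osteopontin gene, was 4.26-fold higher, and Tagln, an actin-binding gene of contractile cells, 3.0-fold higher. Postn, the periostin gene, was 10.6-fold lower, Bambi as above, and Comp, a cartilage matrix gene, 7.21-fold lower. Ctgf, a target often used as a readout and named after its value was seen, was lower, with a log2 fold change of -1.11. Of the feedback targets, Skil, Smad7 and Pmepa1 were higher, with 0.80, 0.71 and 0.47 (Pmepa1 also named after its value was seen). The decoy receptor gene Bambi, in the same list, was lower, with -2.9. Several genes stand in more than 1 list (Skil, Smad7, Pmepa1, Bambi, Fn1 and Fst among them), so the counts of the lists are not separate.

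**Figure D4:**
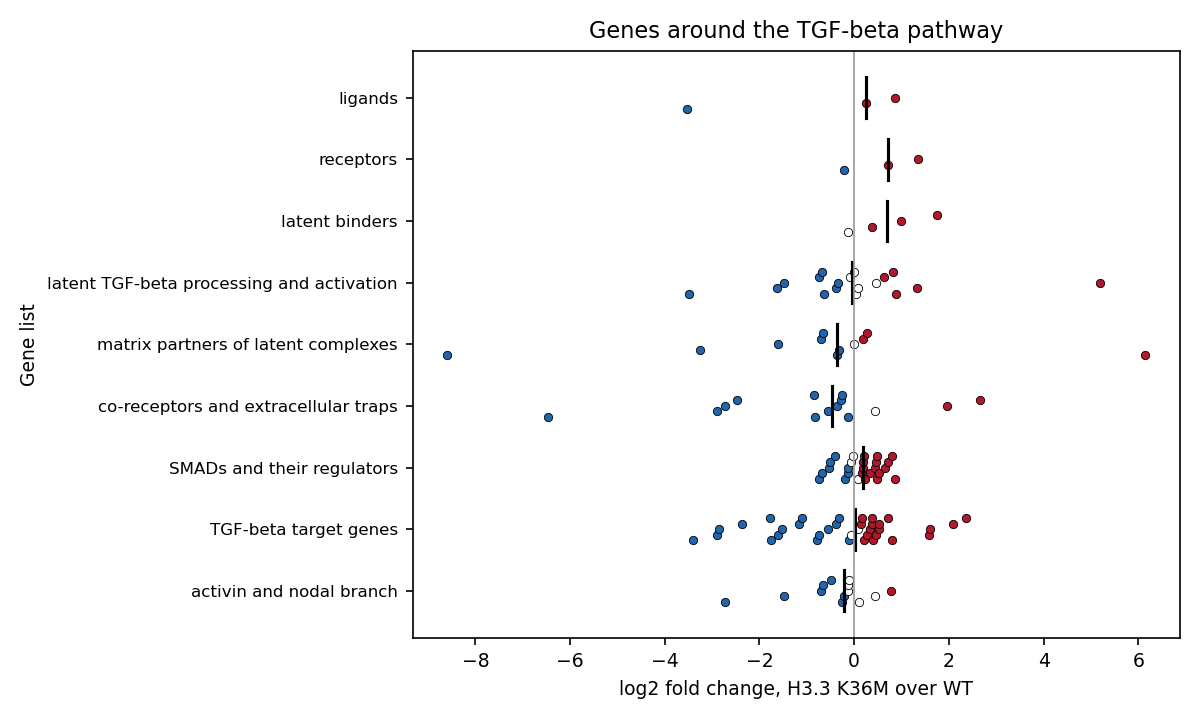
Log2 fold change of K36M over WT for the tested genes of each list around the pathway; red points were called higher, blue lower and open points were not called, and the black bar is the list's median. Medians run from -0.46 for co-receptors and traps to 0.72 for the receptors, beside 0.00 over all genes tested. A red point at 1.60 among the TGF-beta target genes was drawn in error for Cilp, which did not pass the filter on low counts. That point is not a value of Cilp, and it enters neither the counts nor the median of the list.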

How the data were processed

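Per the file headers, the deposited matrix holds expected counts from RSEM, used by the authors for EBSeq. Per the submitters' processing notes, Bowtie 1.0.0, RSEM 1.2.12 and the mouse build mm9 were used; no source used here gives the annotation, RNA selection or strand, so reads of antisense or overlapping genes cannot be told apart. The second table, deposited by the authors, holds log2 values of scaled expected counts and a linear ratio, K36M over WT; its 4 factors, recovered here, reproduce its log2 values to 5e-09.

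The test on rounded expected counts was edgeR 4.0.16 under R 4.3.3 (filterByExpr, TMM, quasi-likelihood F test, 2 residual and 15.7 prior degrees of freedom, Benjamini-Hochberg over 13162 genes). Beyond counting error, libraries of a group varied by a common 3.33%. Standard errors are the log2 fold change divided by the square root of F. The tests were tried on simulated counts first. Same-group libraries differed by more than Poisson error (chi-square averaging 7.46 a gene in K36M and 3.5 in WT), so none was a copy of another. The check cannot tell a second library of the same RNA from a library of a separate culture. DESeq2 1.42.0, limma 3.58.1 (voom), other scalings, filters, a thinned draw, a replicate block and leaving out each library were alternatives.

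The members and the gene lists were chosen with earlier results of these data known. Besides all 10 members, the text names, per list, up to 3 called genes with the largest changes in each direction and a mean of at least 1 CPM; markers without counts and others are marked.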

Additional observations from a re-analysis of the deposited data

How the results depend on the processing

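Of the 10 TGF-beta genes, 9 kept their direction and their call in all 14 alternatives. Tgfb2 ranged from -3.61 to -3.48 on the log2 scale, Ltbp1 from 1.67 to 1.81 and Tgfbr1, which had the highest adjusted p of the 9 (0.0156), from -0.30 to -0.15. Ltbp4 ranged from -0.30 (adjusted p = 0.035, without WT replicate 1) to 0.05 (adjusted p = 0.761, without WT replicate 2), and was not called in the other 12; fewer samples enter those 2 fits, and the lone WT library is assumed to vary like the rest. Over all genes, 5070 were higher and 4879 lower; with the authors' factors 4360 and 5709, the largest shift of that balance, with a median log2 fold change of -0.08. Same-numbered libraries did not deviate together (correlation 0.00174), so the numbers are not taken as pairs; with the replicate block 5008 genes were higher and 4796 lower, and all 10 TGF-beta genes stayed on their side of the threshold. Acvr2b (log2 fold change 0.77, adjusted p = 0.00657) was not called with DESeq2 (0.0793), without WT replicate 1 (0.0902) or without K36M replicate 1 (0.0795). The ratios kept their direction with 1 count added and without each library. Depth limits Ltbp4 most, with 180 to 448.98 counts per library.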

Other observations

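A list of activin and nodal ligands, receptors and antagonists held more lower than higher genes in K36M cells. Of 22 listed genes 13 were tested, with 1 higher (7.69%, beside 38.5% of all tested genes), 7 lower (53.8%, beside 37.1%) and 5 not called, and a median log2 fold change of -0.22. With DESeq2 4 were lower, and with total counts 5. The 7 include the antagonist gene Fst and the inhibin gene Inha. They also include the receptor genes Acvr1 (37.2 CPM in K36M and 52.1 CPM in WT) and Acvrl1, which are known to signal through SMAD1 and SMAD5. Inha, Acvr1 and Acvrl1 are named after their values were seen. In the edgeR fit Inha and Acvrl1 had the highest adjusted p of the 7 (0.0392 and 0.0257). Acvrl1 stood at 0.861 CPM in K36M and 1.37 CPM in WT, from 26 to 52 counts per library. Inhba, the activin A subunit gene, had 3.57 and 2.88 CPM in K36M libraries, against 8.71 and 9.73 CPM in WT libraries, 2.80-fold lower. Acvr1b, which encodes the type I receptor ALK4, was 1.64-fold lower, and the activin trap gene Fst 6.58-fold lower. Acvr2b, a type II receptor gene, was the 1 higher gene (1.70-fold, at 1.72 ± 0.200 CPM in K36M and 1.03 ± 0.202 CPM in WT), with a call that 3 of the alternatives above did not give.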
